A study of Mus musculus with 11 samples.

Results

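The double mutant retinas of the series (DKO, labelled as lacking both Six3 and Six6) were set against all retinas that kept at least 1 of these genes. The comparison took 3 DKO libraries of the 11 in the series, and the 8 others were 3 Six3KO, 2 Six6KO and 3 WT libraries, as the columns of the count table were labelled. It asked which genes held their WT level as long as 1 of the paralogs remained and changed when both were lost. DKO embryos carried floxed Six3 alleles (Six3F/F), CAGGCre-ERTM and Six6-/-, while Six3KO embryos carried Six3F/F and CAGGCre-ERTM with both Six6 alleles intact. Six6KO embryos were Six3F/F and Six6-/- without Cre, and WT embryos were Six3F/F, Six6+/+ and without Cre. All embryos were of the NMRI strain, came from dams given tamoxifen at embryonic days E10.5 and E11.5, and were dissected at E13.5, with a pair of retinas per library. CAGGCre-ERTM is a widely expressed Cre recombinase that tamoxifen activates, so Six3 was removed from the day of injection and not only in the retina, whereas Six6 was absent from conception. Cre was carried only by Six3KO and DKO embryos, so in a contrast with WT or Six6KO an effect of Cre and the loss of Six3 cannot be told apart. The submitters had removed 1 further Six6KO sample, in which duplicate reads were frequent. The labels do not say whether libraries of a group came from separate litters, so p-values measure the spread between these samples.

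Six3 and Six6 encode closely related homeodomain transcription factors. Both are made in the eye field and later in the progenitors of the neural retina, where they can act as repressors together with Groucho family corepressors such as Tle proteins and can also activate genes. Paralogs that bind similar DNA sites can stand in for each other, so the loss of either alone may leave a target gene at its usual level.

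Libraries held 11965016 to 12659540 reads in genes in DKO, against 7807744 to 16403191 reads in the 8 others. The progenitor markers Rax, Pax6, Lhx2 and Sox2 were present in every library, and the list of retinal progenitor genes summed to 7355 to 8706 CPM (read counts scaled to library size by TMM) in DKO, against 5291 to 11747 CPM in the 8 others. DKO libraries were close to each other, with Spearman correlations across genes of 0.984 to 0.992. Ddx3y, a gene of the Y chromosome, stood at 0, 87.6 and 0.159 CPM in DKO libraries rh010, rh011 and rh021. It stood at 0, 72.9 and 110 CPM in Six3KO, 71.5 and 89.7 CPM in Six6KO, and 0.0781, 77.7 and 0.127 CPM in WT. Embryos of both sexes were thus present, in unequal shares between groups, and sex was not part of the fit. The highest scores on the first principal component (45.9% of the variance) belonged to rh026, a Six3KO library, and rh020, a Six6KO library. Without both of them 349 genes were called in the comparison below, of which 246 were among the 337 called with every library kept; this setting was chosen after seeing the data. These are bulk samples, in which fewer cells of a type and less RNA per cell cannot be told apart.

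Six3 (GRCm38 chromosome 17, plus strand, 85613608 to 85629302) stood at 57.3, 56.2 and 98.2 CPM in DKO libraries rh010, rh011 and rh021, against 73.8, 75.9 and 30.3 CPM in Six3KO, 307 and 142 CPM in Six6KO, and 164, 299 and 223 CPM in WT. Six6 (chromosome 12, 72939892 to 72944899, plus strand) stood at 56.0, 52.8 and 99.8 CPM in the same DKO libraries, against 335, 339 and 168 CPM in Six3KO, 131 and 76.8 CPM in Six6KO, and 225, 340 and 277 CPM in WT. Both genes were thus lower in the groups labelled as lacking them and at no point absent. Six3KO, 1 of the 3 groups set against DKO, had itself lost Six3, and the log2 difference of DKO from the mean of the 3 groups was -1.05 ± 0.37 (SE) for Six3, which did not pass (edgeR adjusted p = 0.18). For Six6 it was -1.54 ± 0.31 (adjusted p = 0.041), a call that was lost without DKO libraries rh010 or rh011, Six3KO library rh006, Six6KO library rh007 or WT libraries rh016 or rh024, with an adjusted p of up to 0.237. Six3 shares exon sequence with the antisense gene Six3os1, and Six6 shares some with 4930447C04Rik. Whether counting used strand is not stated in the sources at hand, so such pairs may have exchanged reads. Six3os1 stood at 1412 ± 166 CPM (SD, n = 3) in DKO, against 1161 ± 318 CPM in Six3KO (n = 3), 567 CPM in Six6KO (n = 2) and 568 ± 160 CPM in WT (n = 3), and did not pass (log2 difference 0.97, adjusted p = 0.0532).

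Across all 13292 genes tested, DKO differed from the mean of the Six3KO, Six6KO and WT groups in 337 genes (2.54%) at a Benjamini-Hochberg adjusted p under 0.05 by edgeR's quasi-likelihood test. Of these, 194 genes (1.46%) were higher and 143 (1.08%) were lower in DKO. The median log2 difference was 0.98 among the higher genes and -1.44 among the lower genes, against -0.00 over all genes. At least 8 fold separated the groups in 14 of the higher and 14 of the lower genes. Over all genes tested, called or not, 255 had an estimate of at least 8 fold, so most estimates of that size did not pass. In 181 of the higher genes (1.36% of all genes tested) all 3 DKO libraries lay above all 8 others, and in 138 of the lower genes (1.04%) all 3 lay below. With no test applied, 559 genes (4.21%) lay above and 474 (3.57%) lay below in this way. The heat map draws the called genes, which were chosen for this difference, as departures from the mean of the 8 others. That DKO stands apart in it is therefore fixed by the choice of genes, and it serves to show the single libraries.

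**Figure D1:**
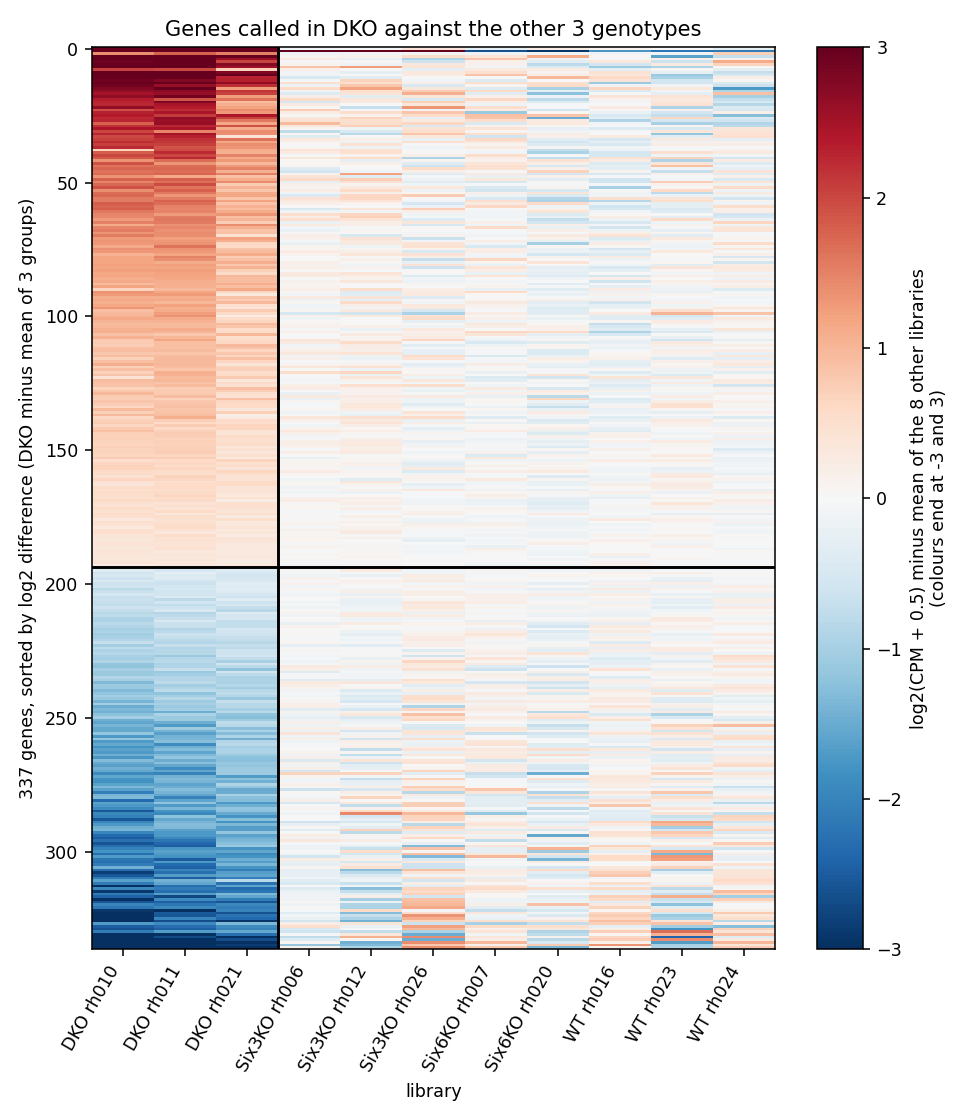
Level of the 337 called genes (rows, sorted by their log2 difference) in each of the 11 libraries (columns, DKO left of the black line), as log2(CPM + 0.5) minus the mean of the 8 other libraries. The colour scale ends at -3 and 3, and the horizontal line parts the 194 higher from the 143 lower genes. DKO library rh021 is paler than rh010 and rh011 in most rows, and Esr1, near the top, is the row that is dark in the 3 Six3KO libraries too.

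The number of called genes rested on single DKO libraries. It was 43 without rh010, 46 without rh011 and 269 without rh021, and the Six3KO library rh006 had an effect of its own (173 genes without it). Six6KO libraries rh007 and rh020 and WT library rh016 moved it as well, to 220, 208 and 203 genes. The genes treated first below are therefore those called in every one of 23 alternative analyses, of which there were 21, with 17 higher and 4 lower in DKO.

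Among the 17 genes higher in DKO under every alternative, Dbx1 had the largest difference. Dbx1, a homeobox gene that marks progenitors of spinal and hindbrain interneurons (chromosome 7, 49631499 to 49636849, minus strand), stood at 15.5, 15.2 and 8.01 CPM in DKO libraries rh010, rh011 and rh021. It stood at 0.0608, 0.0960 and 0.303 CPM in Six3KO, 0 and 0.214 CPM in Six6KO, and 0.156, 0.116 and 0 CPM in WT. Every DKO library was far above the 8 others, which held next to no reads. In reads, Dbx1 had 473 in the 3 DKO libraries against 10 in the 8 others, which is 108 times as many per read sequenced (exact 95% interval for counts 58.1 to 226). That interval leaves out the spread between embryos, and edgeR gave an adjusted p of 0.000438. The reads in the others were 5 in Six3KO, 2 in Six6KO and 3 in WT, so neither single mutant approached the DKO level.

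Tfap2c, which encodes an AP-2 family transcription factor (chromosome 2, 172549593 to 172558622, plus strand), stood at 84.0, 108 and 61.3 CPM in DKO, against 6.14, 6.72 and 7.97 CPM in Six3KO, 12.4 and 7.81 CPM in Six6KO, and 8.52, 2.78 and 4.59 CPM in WT. The groups did not overlap, and the log2 difference of DKO from the 3 groups was 3.55 ± 0.27 (adjusted p = 0.000438). Lmo3, a LIM-only transcription cofactor (chromosome 6, 138362918 to 138581968, minus strand), stood at 21.3 ± 7.01 CPM (n = 3) in DKO, against 1.52 ± 0.446 CPM in Six3KO (n = 3), 2.02 CPM in Six6KO (n = 2) and 1.40 ± 0.779 CPM in WT (n = 3). Its log2 difference was 3.70 ± 0.31 (adjusted p = 0.000438), and no DKO library overlapped the others.

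Zic1, a zinc finger factor of the dorsal neural tube (chromosome 9, 91358058 to 91365810, minus strand), stood at 379, 378 and 265 CPM in DKO, against 90.3, 100.2 and 107 CPM in Six3KO, 136 and 89.2 CPM in Six6KO, and 65.3, 87.3 and 88.9 CPM in WT. Glis3, another zinc finger factor (chromosome 19, 28258851 to 28680077, minus strand), stood at 129.7, 101 and 68.3 CPM in DKO, against 27.7, 24.5 and 24.9 CPM in Six3KO, 33.5 and 28.7 CPM in Six6KO, and 25.6, 25.9 and 26.8 CPM in WT. Both genes were higher in every DKO library than in any other, by 1.82 ± 0.15 and 1.86 ± 0.15 on the log2 scale (adjusted p = 0.000438 for each). Exons of Zic1 overlap those of Zic4 on the other strand, so reads could be split between them.

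Tmem132b, a transmembrane protein gene (chromosome 5, 125531774 to 125792583, plus strand), stood at 194, 197 and 65.8 CPM in DKO libraries rh010, rh011 and rh021, against 9.98, 8.25 and 11.9 CPM in Six3KO, 10.2 and 5.14 CPM in Six6KO, and 6.02, 11.4 and 14.9 CPM in WT. The log2 difference was 4.02 ± 0.36 (adjusted p = 0.000671), and the groups did not overlap although rh021 stood well below the other DKO libraries. Ptprk, a receptor tyrosine phosphatase gene (chromosome 10, 28074820 to 28597397, plus strand), stood at 355 ± 58.2 CPM in DKO (n = 3), against 134 ± 16.3 CPM in Six3KO (n = 3), 149 CPM in Six6KO (n = 2) and 125 ± 25.4 CPM in WT (n = 3), a log2 difference of 1.38 ± 0.15 (adjusted p = 0.00179). The smaller steps of Nudt4, a phosphohydrolase of inositol pyrophosphates (1.06 ± 0.08), Stxbp6, a syntaxin-binding protein (0.87 ± 0.07), and Trps1, a zinc finger repressor (0.82 ± 0.08), had little spread within DKO, where Stxbp6 stood at 123, 119.5 and 117 CPM. Slc16a1, a monocarboxylate transporter, was higher by 1.02 and Galnt12, an O-linked glycosyltransferase, by 1.68 on the log2 scale. These last 5 genes fell outside the rule for named genes and were chosen after their values were seen.

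The 4 genes that were lower in DKO under every alternative were Otx2, Rbpms, Egflam and Ptprt. Otx2, a homeobox gene required for photoreceptor fate (chromosome 14, 48657677 to 48673819, minus strand), stood at 27.7, 30.8 and 25.8 CPM in DKO, against 88.7, 78.5 and 84.1 CPM in Six3KO, 55.6 and 79.6 CPM in Six6KO, and 105, 88.8 and 93.7 CPM in WT. Rbpms, an RNA-binding protein gene of retinal ganglion cells (chromosome 8, 33782643 to 33929863, minus strand), stood at 10.6, 14.3 and 13.9 CPM in DKO, against 36.1, 32.1 and 42.1 CPM in Six3KO, 37.6 and 29.3 CPM in Six6KO, and 46.7, 47.3 and 39.0 CPM in WT. In both genes the 3 DKO libraries lay close together and below all others, with log2 differences of -1.54 ± 0.13 for Otx2 (adjusted p = 0.000438) and -1.55 ± 0.15 for Rbpms (adjusted p = 0.00112). Exons of Otx2 overlap those of Otx2os1, so part of its reads may be shared.

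Egflam encodes pikachurin, a matrix protein of photoreceptor synapses (chromosome 15, 7206120 to 7398395, minus strand), and stood at 3.44, 2.57 and 3.57 CPM in DKO, against 15.3, 14.1 and 23.9 CPM in Six3KO, 13.46 and 12.7 CPM in Six6KO, and 15.4, 17.8 and 22.4 CPM in WT. Ptprt, a receptor tyrosine phosphatase of the same subfamily as Ptprk (chromosome 2, 161521990 to 162661147, minus strand), stood at 3.03, 3.31 and 3.01 CPM in DKO, against 21.3, 17.9 and 39.2 CPM in Six3KO, 18.4 and 18.3 CPM in Six6KO, and 16.3, 14.6 and 24.6 CPM in WT. No DKO library reached the lowest of the others in either gene, and the log2 differences were -2.34 ± 0.23 for Egflam (adjusted p = 0.00117) and -2.73 ± 0.29 for Ptprt (adjusted p = 0.00183). Part of the Egflam reads may be shared with Gm16029, whose exons overlap.

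**Figure D2:**
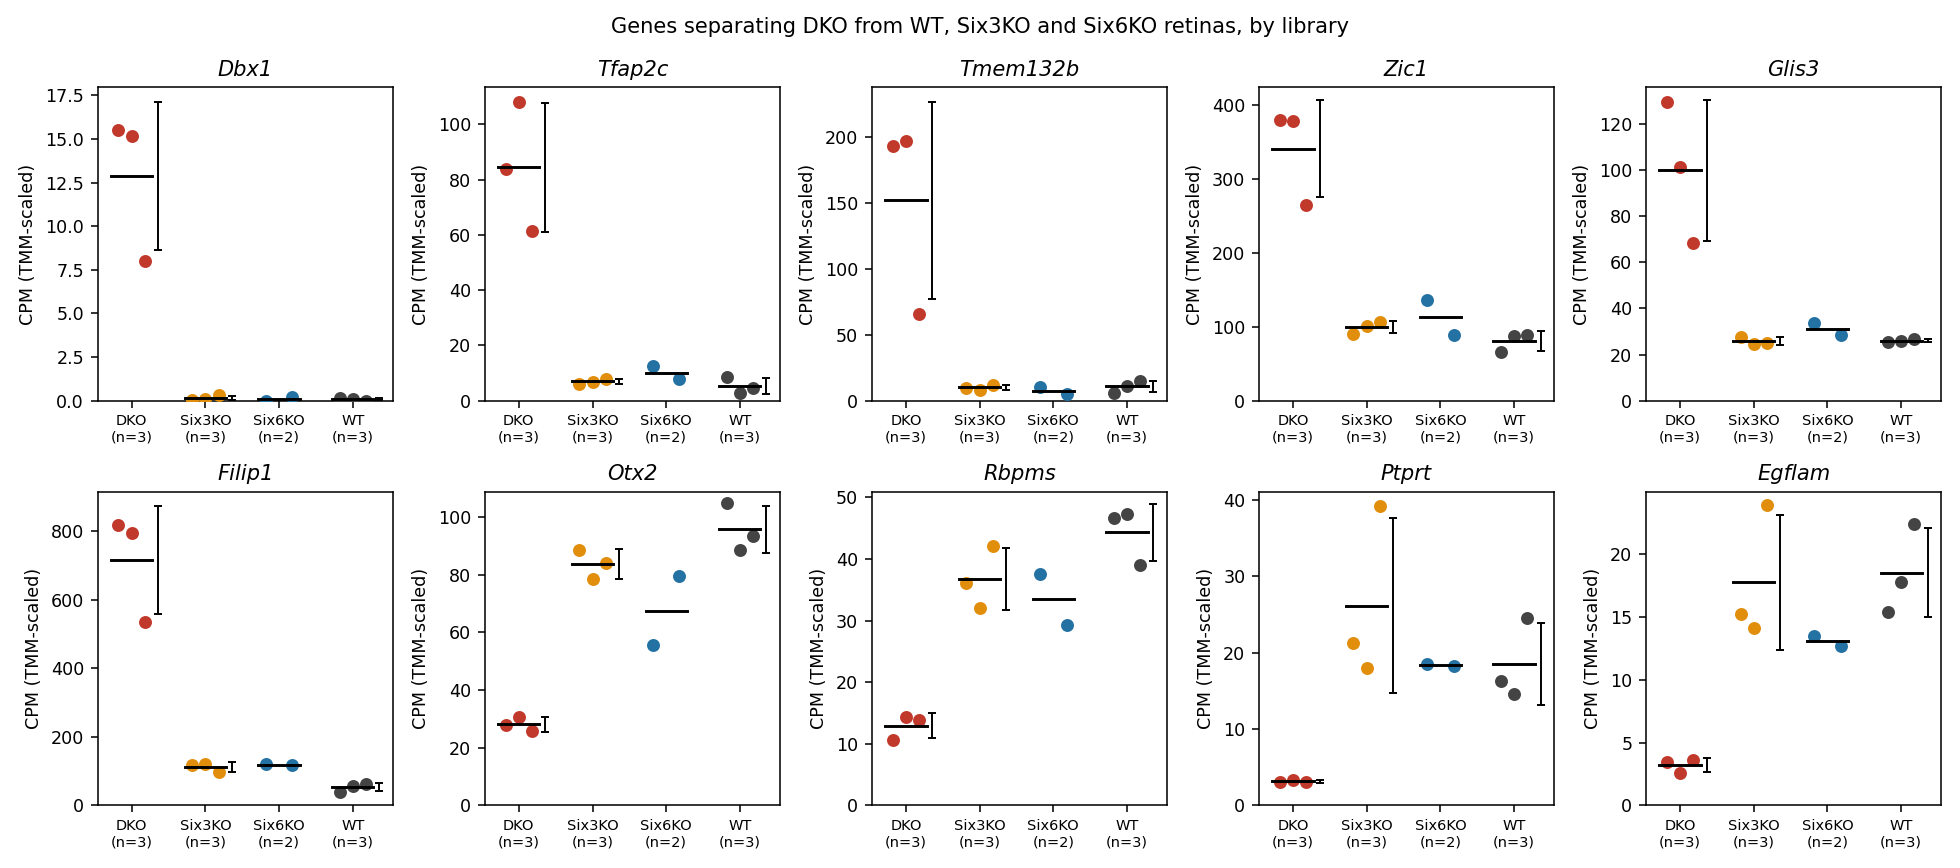
CPM (vertical axes, from 0) of 10 of the genes called under every alternative, in each library (points) of DKO, Six3KO, Six6KO and WT, with the group mean (line) and, where n = 3, the SD (bar). Dbx1 lies between 8.01 and 15.5 CPM in DKO against 0.303 CPM or less elsewhere, and Ptprt lies between 3.01 and 3.31 CPM in DKO against 14.6 CPM or more elsewhere. In Filip1, Zic1 and Otx2 every Six3KO and Six6KO library lies between the DKO and the WT libraries.

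Promoters are shown for the gene of each direction with the largest difference among those called under every alternative, Dbx1 and Ptprt. The sequences are from RefSeq (GRCm38.p6), run from 250 bases before to 50 bases after the gene's start, and are written 5′ to 3′ on the minus strand of chr7:49636786-49637085 for Dbx1 and chr2:162661098-162661397 for Ptprt. Capitals mark TAAT, the core read by many homeodomains, or its reverse complement ATTA.
Dbx1: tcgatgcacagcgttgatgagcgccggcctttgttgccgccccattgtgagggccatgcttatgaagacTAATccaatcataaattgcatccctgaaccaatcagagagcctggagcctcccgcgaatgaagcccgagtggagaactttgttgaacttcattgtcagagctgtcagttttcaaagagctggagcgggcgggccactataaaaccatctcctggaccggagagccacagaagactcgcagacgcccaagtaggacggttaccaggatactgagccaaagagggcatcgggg
Ptprt: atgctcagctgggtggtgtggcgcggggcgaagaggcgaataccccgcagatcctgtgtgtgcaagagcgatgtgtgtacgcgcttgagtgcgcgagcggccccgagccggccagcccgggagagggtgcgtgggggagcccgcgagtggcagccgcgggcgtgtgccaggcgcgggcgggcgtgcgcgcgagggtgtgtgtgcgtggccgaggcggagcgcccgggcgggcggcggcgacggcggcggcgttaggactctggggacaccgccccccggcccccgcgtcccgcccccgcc
The Dbx1 window holds 1 TAAT and the Ptprt window 0, and neither holds GTATCA or its reverse complement TGATAC, a motif that homeodomains of the Six3 and Six6 type bind. TAAT or ATTA is in 50% of the 192 promoters of genes higher in DKO and 40.9% of the 154 promoters of genes lower in DKO, against 41.9% of the 13046 promoters of all tested genes. GTATCA or TGATAC is in 3.12% and 1.3% of the promoters of higher and lower genes, against 2.86% for all tested genes and 5.46% of all 32851 promoters in the table. A match is a run of letters and not a measured binding site, and these windows leave out distal enhancers.

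A large share of the genes that changed in DKO were near their WT level in both single mutants, though a smaller share than of all genes. Both single mutants were taken as within 2 fold of WT where the 95% interval of the log2 difference from WT lay between -1 and 1 in each of them. This held for 186 of the 337 called genes, of which 119 were among the 194 higher genes (61.3%) and 67 among the 143 lower genes (46.9%), against 70.8% of all genes tested. The intervals of genes with few reads are wide, which alone keeps genes such as Dbx1 (interval -1.80 to 2.71 in Six3KO) out of that count. Among the higher genes the median log2 difference from WT was 0.09 in Six3KO and -0.02 in Six6KO, and among the lower genes it was -0.03 in Six3KO and -0.11 in Six6KO. In Six6KO against WT edgeR called 0 genes (518 at an unadjusted p under 0.05). In Six3KO against WT it called 1, Esr1 (0.00752% of those tested; 465 at an unadjusted p under 0.05), and Esr1 was also the 1 gene called among the 3 groups (0.00752%), where DESeq2 called 18.

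Of the 21 genes called under every alternative, 10 met the 2-fold condition in both single mutants. For Glis3 the difference from WT was -0.02 (95% interval -0.46 to 0.43) in Six3KO and 0.25 (-0.24 to 0.75) in Six6KO. For Nudt4 it was -0.00 (-0.24 to 0.24) in Six3KO and -0.18 (-0.45 to 0.09) in Six6KO, and for Trps1 -0.05 (-0.28 to 0.19) and -0.01 (-0.27 to 0.25) in the same order. These 3 genes had narrow intervals around 0 in the single mutants. For Otx2 the difference from WT was -0.19 (-0.50 to 0.12) in Six3KO and -0.50 (-0.86 to -0.15) in Six6KO, so the Six6KO interval lay below 0 without leaving the 2-fold range. For Rbpms it was -0.27 (-0.63 to 0.09) in Six3KO and -0.41 (-0.82 to 0.00) in Six6KO.

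Rmst, Mab21l2 and Lrfn5 also had both single mutants in that range and lost their calls only in the fits with covariates. Rmst, a long noncoding RNA gene of the developing brain, stood at 546 ± 133 CPM in DKO (n = 3), against 165 ± 32.5 CPM in Six3KO (n = 3), 134 CPM in Six6KO (n = 2) and 149 ± 37.7 CPM in WT (n = 3), with a log2 difference of 1.88 ± 0.20 (adjusted p = 0.00179; 1.51 and adjusted p = 0.0687 with the score of mesenchyme markers described below as a covariate). Exons of Rmst overlap those of Gm26700 on the other strand. Mab21l2, a gene required for eye formation, stood at 555, 551 and 465 CPM in DKO, against 217, 277 and 210.1 CPM in Six3KO, 259 and 190 CPM in Six6KO, and 192, 236 and 218 CPM in WT (1.22 ± 0.12, adjusted p = 0.0014; 0.97 and adjusted p = 0.0604 with that covariate). Every DKO library lay above the others for Mab21l2, whose exons overlap those of Lrba. Lrfn5, a synaptic adhesion gene, was the lower gene with the largest difference in this group, at 1.54 ± 0.415 CPM in DKO (n = 3), against 6.42 ± 2.02 CPM in Six3KO (n = 3), 7.49 CPM in Six6KO (n = 2) and 7.08 ± 0.395 CPM in WT (n = 3). Its log2 difference was -2.17 ± 0.28 (adjusted p = 0.00576; -1.85 and adjusted p = 0.059 with that covariate).

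Some called genes differed from WT in a single mutant at an unadjusted p under 0.05, in either direction. Of the 194 genes higher in DKO, 15 (7.73%) were above and 1 (0.515%) below WT in Six3KO, against 2.29% and 1.2% of all genes tested. In Six6KO 8 of them (4.12%) were above and 7 (3.61%) below WT, against 2.26% and 1.63% of all genes. Of the 143 genes lower in DKO, 4 (2.80%) were below and 4 (2.80%) above WT in Six3KO, and 12 (8.39%) were below and 2 (1.4%) above WT in Six6KO. These comparisons share the single mutant libraries with the choice of genes, so they are given as values and not as a test.

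Filip1, a filamin-interacting protein gene (chromosome 9, 79815051 to 80012851, minus strand), had the smallest p after Esr1. It stood at 818, 794 and 535 CPM in DKO, against 118, 121 and 95.8 CPM in Six3KO, 119.6 and 118 CPM in Six6KO, and 38.7, 56.4 and 62.3 CPM in WT. The libraries of both single mutants lay above all of WT and below all of DKO. The log2 difference of DKO from the 3 groups was 3.01 ± 0.16 (adjusted p = 3.77e-05), while Six3KO stood 1.09 (95% interval 0.63 to 1.56) and Six6KO 1.18 (0.67 to 1.69) above WT.

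Cdh13, a cadherin without a cytoplasmic domain (chromosome 8, 118283733 to 119324921, plus strand), stood at 41.4, 34.0 and 42.6 CPM in DKO, against 7.66, 8.25 and 11.3 CPM in Six3KO, 14.3 and 14.0 CPM in Six6KO, and 5.31, 4.39 and 2.80 CPM in WT. Erbb4, a receptor for neuregulins, stood at 125, 154 and 76.9 CPM in DKO, against 35.0, 35.8 and 31.3 CPM in Six3KO, 36.7 and 30.2 CPM in Six6KO, and 13.3, 17.8 and 16.6 CPM in WT. In both genes every single mutant library lay between WT and DKO, and the DKO difference from the 3 groups was 2.27 ± 0.17 for Cdh13 and 2.18 ± 0.18 for Erbb4 (adjusted p = 0.000438 for each; Erbb4 was chosen after its values were seen). Car5b, a mitochondrial carbonic anhydrase gene on chromosome X (163976822 to 164027997, minus strand), stood at 45.5, 41.7 and 32.9 CPM in DKO, against 1.46, 1.54 and 2.22 CPM in Six3KO, 1.97 and 3.53 CPM in Six6KO, and 1.41, 0.116 and 0.637 CPM in WT. Its single mutant libraries were above all of WT as well, at a small part of the DKO level, and the DKO difference from the 3 groups was 4.69 ± 0.36 (adjusted p = 0.000438).

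Nwd2 and Shh were among the genes whose Six3KO interval against WT left out 0 while the Six6KO interval held it, but the groups other than DKO did not pass among themselves for either gene (adjusted p = 0.9997). Nwd2 stood at 11.6 ± 3.66 CPM in DKO (n = 3), against 2.03 ± 0.736 CPM in Six3KO (n = 3), 0.674 CPM in Six6KO (n = 2) and 0.427 ± 0.405 CPM in WT (n = 3). It was above WT in Six3KO by 2.32 (95% interval 0.97 to 3.66) and in Six6KO by 0.73 (-0.88 to 2.34), and the DKO difference from the 3 groups was 3.80 ± 0.41 (adjusted p = 0.00179; 3.53 and adjusted p = 0.0674 with the mesenchyme covariate). Shh, the ligand of the Hedgehog pathway, which ganglion cells release, stood at 0, 0.166 and 0.238 CPM in DKO, against 0.912, 0.768 and 0.605 CPM in Six3KO, 2.32 and 0.642 CPM in Six6KO, and 2.97, 6.36 and 2.29 CPM in WT. All DKO libraries lay below all others, and the Six3KO and Six6KO libraries overlapped. The DKO difference was -3.49 ± 0.76 (adjusted p = 0.0465), and the call was lost without any 1 of 9 libraries, all but Six6KO library rh020 and WT library rh023, with an adjusted p of 0.205 without DKO library rh010 and 0.212 without DKO library rh011, and it was lost with the mesenchyme covariate too (-4.26, adjusted p = 0.0719). Six3KO stood -2.31 (-3.84 to -0.79) and Six6KO -1.39 (-3.08 to 0.31) from WT for Shh. Exons of Nwd2 overlap those of Gm9954 on the other strand, and those of Shh overlap 9530036O11Rik and Gm26894.

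**Figure D3:**
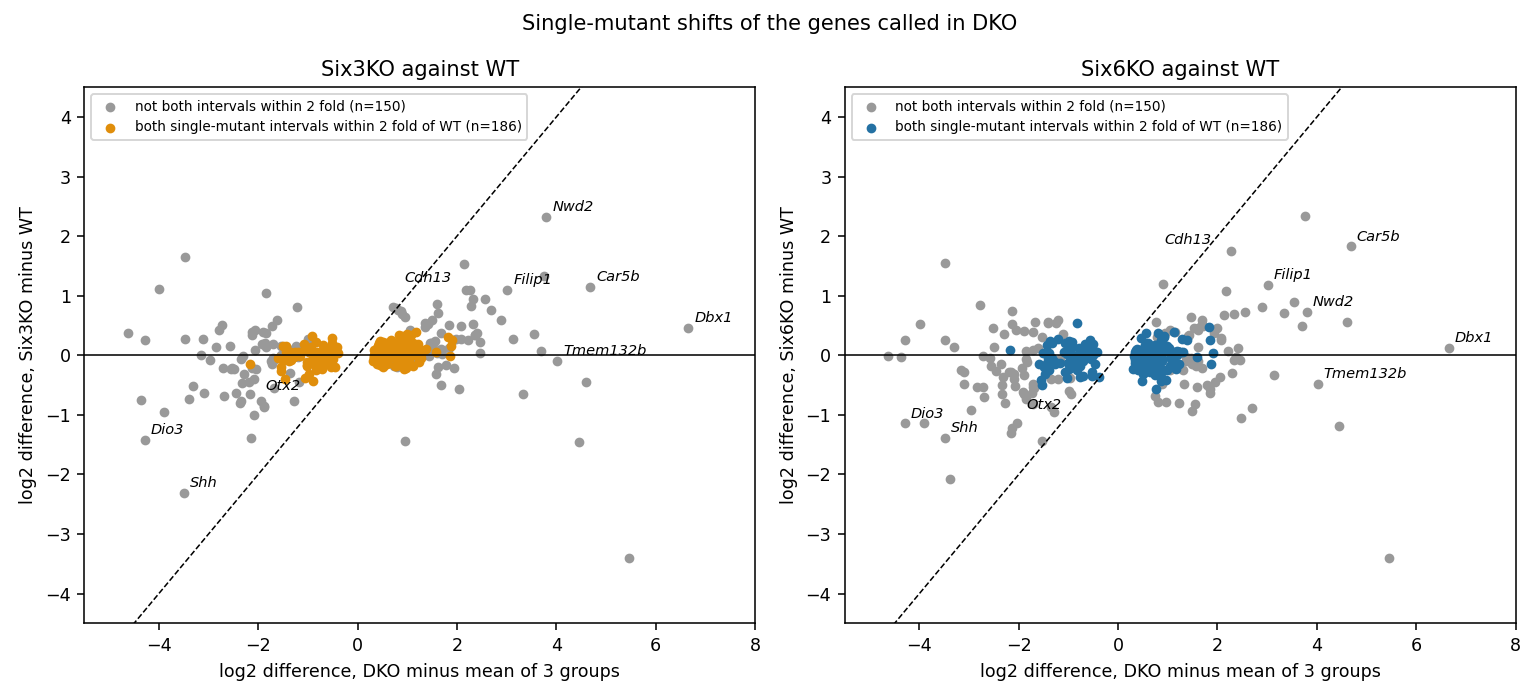
Log2 difference of Six3KO (left) and Six6KO (right) from WT (vertical axes) against the log2 difference of DKO from the mean of the 3 groups (horizontal axes) for 336 called genes, without Esr1. Coloured points are the 186 genes whose 95% intervals lay within 2 fold of WT in both single mutants, grey points are the other 150, and the dashed line marks equal values. Filip1 (1.09 and 1.18), Cdh13 (1.10 and 1.74) and Car5b (1.15 and 1.83) lie above 0 in both panels, and Shh (-2.31 and -1.39) lies below.

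DKO was also compared with each group in turn. These 3 contrasts share the DKO libraries and are given side by side. Against Six3KO, 44 genes were higher (0.331% of those tested) and 34 lower (0.256%). Against Six6KO, with 2 libraries, 22 were higher (0.166%) and 9 lower (0.0677%). Against WT, 87 were higher (0.655%) and 85 lower (0.639%). Single libraries moved these counts: without rh010 or rh011 they fell to 16 and 21 genes against Six3KO, 1 and 1 against Six6KO, and 20 and 25 against WT. Against Six3KO there were 38 genes without rh026. Against Six6KO there were 77 without rh021, 75 without rh026, 10 without rh023, 3 without rh007, and 2 without rh006 or rh020. Against WT there were 279 without rh026, 45 without rh016, 61 without rh024, and 59 without rh006 or rh023. Dbx1 passed in all 3 contrasts with every library kept, with 6.40 ± 0.74 against Six3KO (adjusted p = 0.0061), 6.73 ± 0.93 against Six6KO (adjusted p = 0.034) and 6.85 ± 0.78 against WT (adjusted p = 0.005). So did Otx2, with -1.58 ± 0.14 against Six3KO (adjusted p = 0.0058), -1.27 ± 0.16 against Six6KO (adjusted p = 0.027) and -1.77 ± 0.14 against WT (adjusted p = 0.0011). Cdh13 passed against Six3KO (2.12 ± 0.23) and WT (3.22 ± 0.25) and not against Six6KO (1.47 ± 0.26, adjusted p = 0.065).

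Esr1 had the smallest p of all genes and was high in both groups that carried Cre. CAGGCre-ERTM contains part of the mouse estrogen receptor gene, and Esr1 stood at 50.6, 62.0 and 50.2 CPM in DKO and 53.9, 52.0 and 57.1 CPM in Six3KO, against 0.116 and 0 CPM in Six6KO and 0.625, 0.347 and 0.382 CPM in WT. DKO and Six3KO, the Cre carriers, overlapped (log2 difference -0.00 ± 0.17), while the difference of DKO from the mean of the 3 groups was 5.49 ± 0.19 (adjusted p = 1.17e-06).

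Among forebrain and neural tube patterning factors, 30 of 46 listed genes were tested, of which 9 rose and 2 fell, with a list median of -0.23. Listed genes that were not tested are left out of the counts here and below. A gene could pass the low-count filter through its DKO reads alone, as Dbx1 did (0.303 CPM or less in the 8 others). This adds to the count of risen genes. Over all genes tested, 1.46% rose and 1.08% fell, with a median of -0.00, against which the counts and medians of the lists below can be read. The lists, this one included, were drawn up with earlier results of these data known, so their counts are values and not a test. Among the genes that rose were Dbx1, Lmo3, Rfx4, Wnt3a, Zic1, Zic2, Zic4 and Zic5. Rfx4, a winged-helix factor of the developing brain, stood at 20.1, 28.6 and 6.42 CPM in DKO, against 0.912, 0.480 and 0.101 CPM in Six3KO, 1.62 and 0.535 CPM in Six6KO, and 0.625, 0.809 and 0.765 CPM in WT. Each DKO library was above the others, with rh021 the lowest of the 3 (log2 difference 4.60 ± 0.51, adjusted p = 0.00235; 4.44 and adjusted p = 0.0867 with the mesenchyme covariate). Wnt3a, a Wnt ligand of the dorsal neural midline, was higher by 3.34 ± 0.48 (adjusted p = 0.00869), with a call lost without DKO library rh010 (adjusted p = 0.0677) or rh011 (adjusted p = 0.0704). Zic4 was higher by 2.56, and Zic2 and Zic5 by 1.08 and 1.11, with calls for the last pair that were lost without any 1 of the 3 DKO libraries or without rh006 or rh020 (adjusted p without rh010 of 0.198 and 0.205), or with the mesenchyme covariate (0.384 and 0.462). Zic4 and Zic5 were chosen after their values were seen. The Iroquois homeobox genes fell, Irx3 by 3.10 ± 0.49 (adjusted p = 0.0149) and Irx5 by 2.32 ± 0.39 (adjusted p = 0.0182, chosen after its value was seen), and both calls were lost without DKO library rh010 (adjusted p = 0.104 and 0.115) or rh011 (adjusted p = 0.0915 and 0.131). With the mesenchyme covariate the differences were -1.57 for Irx3 (adjusted p = 0.0414) and -1.27 for Irx5 (adjusted p = 0.129). Exons of Irx3 overlap those of Irx3os.

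Of 27 retinal progenitor genes tested, 3 rose (Mab21l2, Cdon and Nr2f2), 1 fell (Six6) and 23 did not pass, with a median of -0.14, against 1.46% risen and 1.08% fallen over all genes tested. Cdon, a Hedgehog co-receptor, was higher by 1.19 ± 0.18 (adjusted p = 0.0121), and Nr2f2, an orphan nuclear receptor, by 0.81 ± 0.14 (adjusted p = 0.022). Both calls were lost without DKO library rh010 (adjusted p = 0.101 and 0.138) or rh011 (adjusted p = 0.0946 and 0.164), that of Nr2f2 also without Six6KO library rh007, and that of Cdon also with the mesenchyme covariate (adjusted p = 0.113). Exons of Nr2f2 overlap those of B130024G19Rik.

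Lists of differentiating retinal neurons and of proneural and Notch genes together held 2 higher and 5 lower calls, against 1.46% higher and 1.08% lower over all genes tested. Of 12 photoreceptor precursor genes, 1 fell (Otx2) and 0 rose, 10 had estimates below 0 and 2 above, and the list median was -1.56. The list was low in Six6KO as well, with sums of 396 to 532 CPM in DKO, against 328 to 755 CPM in Six3KO, 338 to 435 CPM in Six6KO and 555 to 829.8 CPM in WT. Its median difference from WT was -1.77 in DKO, -0.34 in Six3KO and -1.27 in Six6KO, and that of DKO from Six6KO was -0.73. Of 27 ganglion cell genes, 2 fell (Rbpms and Shh) and 0 rose, with a median of -0.43. The median difference of this list from WT was -0.60 in DKO, -0.07 in Six3KO and -0.39 in Six6KO. That of DKO was -0.25 from Six6KO and -0.65 from Six3KO. Sums overlapped, at 2947 to 3882 CPM in DKO, against 2242 to 5996 CPM in Six3KO, 2491 to 4812 CPM in Six6KO and 3480 to 6362 CPM in WT. Of 18 amacrine and horizontal cell genes, Tfap2c and Calb1 rose, Tfap2a fell and 15 did not pass, with a median of -0.30. Calb1, a calcium-binding protein of horizontal and some amacrine cells, stood at 11.3, 10.4 and 7.45 CPM in DKO, against 1.03, 2.02 and 1.01 CPM in Six3KO, 0.696 and 1.07 CPM in Six6KO, and 1.56, 0.578 and 1.15 CPM in WT. DKO libraries did not overlap the others for Calb1 (log2 difference 3.13 ± 0.32, adjusted p = 0.0014; 3.12 and adjusted p = 0.0573 with the mesenchyme covariate). Tfap2a, the AP-2 paralog of Tfap2c, stood at 0.738, 1.82 and 2.46 CPM in DKO, against 12.5, 7.97 and 34.7 CPM in Six3KO, 12.1 and 9.74 CPM in Six6KO, and 22.8, 5.90 and 16.9 CPM in WT. It went opposite to Tfap2c (-3.11 ± 0.65, adjusted p = 0.0425), and its call was lost without any 1 DKO library (adjusted p of 0.232 without rh010, 0.204 without rh011 and 0.0798 without rh021) or without rh006, rh007, rh020, rh016 or rh024. With the mesenchyme covariate the difference of Tfap2a was -1.10 (adjusted p = 0.249). Exons of Tfap2a overlap those of Gm26688, Gm47061 and Gm47067 on the other strand. Of 26 proneural and Notch genes, 1 fell, Lfng, a glycosyltransferase that modifies Notch (-1.35 ± 0.22, adjusted p = 0.016, lost without rh010 at 0.107 or rh011 at 0.126 and with the mesenchyme covariate at 0.0809).

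FGF/MAPK feedback genes had the most lower calls of the signalling lists, with 4 of 17 fallen, 0 risen and a median of -0.80, against 1.08% fallen over all genes tested. Spry1, a feedback inhibitor of receptor tyrosine kinase signalling, stood at 3.03, 4.72 and 6.74 CPM in DKO, against 18.2, 18.4 and 29.96 CPM in Six3KO, 22.4 and 22.1 CPM in Six6KO, and 20.8, 13.6 and 15.2 CPM in WT. All DKO libraries lay below the others (-2.06 ± 0.28, adjusted p = 0.00804), and the call was lost without rh011 (adjusted p = 0.0704) and with the mesenchyme covariate (-1.51, adjusted p = 0.0809). Exons of Spry1 overlap those of Gm42922 on the other strand. The feedback inhibitor Spry4 (-1.67 ± 0.31, adjusted p = 0.0278) and the ETS factors Etv4 (-1.37 ± 0.25, adjusted p = 0.025) and Etv5 (-1.38 ± 0.26, adjusted p = 0.0278, chosen after its value was seen) also fell. Their calls were lost without rh010 (adjusted p of 0.196 for Spry4, 0.144 for Etv4 and 0.198 for Etv5) or rh011 (0.137, 0.158 and 0.153 in the same order). Spry4 lost its call also without rh021, rh007 or rh016, Etv4 without rh007, and Etv5 without rh006 or rh016. With the mesenchyme covariate Spry4 (adjusted p = 0.195) and Etv5 (0.0669) lost their calls.

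The other signalling lists held calls in both directions or none. Of 13 Hedgehog target genes, Cdon rose, and Hhip, a feedback inhibitor of the pathway, was among those that fell (-1.89 ± 0.40, adjusted p = 0.043). Of 22 Wnt feedback and ligand genes, Wnt3a rose and the receptor Lgr5 fell (-1.29 ± 0.28, adjusted p = 0.0475), with a median of -0.50. Without rh010 the adjusted p was 0.255 for Hhip and 0.264 for Lgr5, and without rh011 it was 0.177 for Hhip and 0.248 for Lgr5. Both also lost their calls without rh006, rh007 or rh020, Hhip without rh021 or rh016, and Lgr5 without rh012, rh023 or rh024. With the mesenchyme covariate the adjusted p was 0.120 for Hhip and 0.110 for Lgr5. Exons of Hhip overlap those of Gm27820 on the other strand. The 20 BMP and TGF-beta feedback genes held 0 calls (median -0.16). Of 24 ciliary margin genes, 3 rose (Zic1, Zic2 and Col9a1) and 2 fell (Cdo1 and Lgr5). Of 14 optic stalk and ventral genes Bmpr1b rose and Spry1 fell, and of 10 dorsal genes Tbx2 fell. The dorsal genes had 5 estimates below 0 and 5 above, and summed to 2264 to 2530 CPM in DKO. Their sums were 1262 to 1445 CPM in Six3KO, 1157 to 2561 CPM in Six6KO and 1203 to 1740 CPM in WT. The calls of Col9a1, Cdo1, Bmpr1b and Tbx2 were lost without rh010 (adjusted p of 0.226 to 0.256), rh011 (0.187 to 0.249), rh006 or rh020, or with the mesenchyme covariate (0.113 to 0.462), among others.

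All 30 S phase genes had estimates below 0, with a median of -0.19 and 0 calls, and the 25 mitosis genes had a median of -0.00 and 0 calls. The S phase list was as low in Six3KO, with a median difference from WT of -0.29 in DKO, -0.28 in Six3KO and -0.04 in Six6KO. Its median difference of DKO from Six3KO was -0.03, and that of DKO from Six6KO was -0.25. The 14 genes of cell cycle exit and D cyclins summed to 1388 to 1869.9 CPM in DKO, against 2264 to 2462 CPM in Six3KO, 2267 to 2808 CPM in Six6KO and 2358 to 3473 CPM in WT. Every DKO library thus lay below all others in that sum, while the list median was -0.08. Of these genes 1 rose (Btg1, an antiproliferative gene, 0.57, adjusted p = 0.016, lost without rh010 at 0.138 or rh011 at 0.131), with DKO above all others. Ccnd1, a D cyclin, stood at 210.1, 204 and 584 CPM in DKO, against 501 to 1171 CPM in Six3KO, 1345 and 637 CPM in Six6KO and 1089.7 to 2285 CPM in WT, and did not pass (log2 difference -1.75, adjusted p = 0.088). It was chosen with its values in view. The 21 p53 target genes had 0 calls and a median of 0.01.

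Among lower genes outside these lists, Dio3, the deiodinase that inactivates thyroid hormone, stood at 0.328, 0.0828 and 1.59 CPM in DKO, against 9.67, 13.1 and 4.24 CPM in Six3KO, 14.9 and 6.95 CPM in Six6KO, and 21.7, 35.0 and 15.4 CPM in WT. DKO lay below all others (-4.29 ± 0.76, adjusted p = 0.0242), and the call was lost without rh010 (adjusted p = 0.161) or rh011 (adjusted p = 0.108). Espn, an actin-bundling protein gene, stood at 0.902, 0.663 and 2.14 CPM in DKO, against 9.73, 15.4 and 9.79 CPM in Six3KO, 6.03 and 6.95 CPM in Six6KO, and 10.6, 14.8 and 11.6 CPM in WT. No libraries overlapped (-2.97 ± 0.38, adjusted p = 0.00576), and leaving out rh010 gave an adjusted p of 0.0566. Tle3, a Groucho family corepressor, stood at 47.2 ± 8.14 CPM in DKO (n = 3), against 117 ± 14.2 CPM in Six3KO (n = 3), 123 CPM in Six6KO (n = 2) and 154 ± 35.9 CPM in WT (n = 3). Its difference was -1.46 ± 0.21 (adjusted p = 0.00869), and the call was lost without rh010 (adjusted p = 0.0846) or rh011 (adjusted p = 0.0813), or with the mesenchyme covariate (-1.28, adjusted p = 0.0876).

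Markers of tissues that border the retina moved with the DKO group. Of 25 periocular mesenchyme genes all had estimates below 0, with a median of -3.98, of which 2 fell (the collagen genes Col1a1 and Col1a2). Their summed level was 645 to 740 CPM in DKO, against 1176 to 7278 CPM in Six3KO, 3050 to 4912 CPM in Six6KO and 1013 to 4162 CPM in WT. Surface ectoderm genes summed to 36.7 to 85.6 CPM in DKO, against 86.9 to 772 CPM over the 8 others (median -2.45, 1 of 21 fell, the transcription factor Grhl3). Blood vessel genes summed to 131 to 140.4 CPM in DKO, against 190 to 471 CPM over the 8 others (median -1.64, 1 of 16 fell, the VEGF receptor Kdr, also made by retinal progenitors). Lens genes overlapped, with sums of 9.83 to 219 CPM in DKO, against 291 to 27090 CPM in Six3KO, 52.7 to 11713 CPM in Six6KO and 28.9 to 1528 CPM in WT (median -5.19, 0 of 22 called). Pigment epithelium genes (median -2.92) and macrophage and microglia genes (median 0.76) held 0 calls, and none of these lists had a gene at 0 reads in a whole group. The calls of Col1a1, Col1a2, Grhl3 and Kdr were lost without rh010 (adjusted p of 0.0873 to 0.236) or rh011 (0.108 to 0.187), and those of the collagen genes also without rh021 or rh016 (Col1a2 also without rh006, rh007, rh020 or rh024). With the mesenchyme covariate all 4 lost their calls (0.0696 to 0.158). Col1a1 and Col1a2 belong to the list that makes up this score, so the loss of their calls is no separate check.

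**Figure D4:**
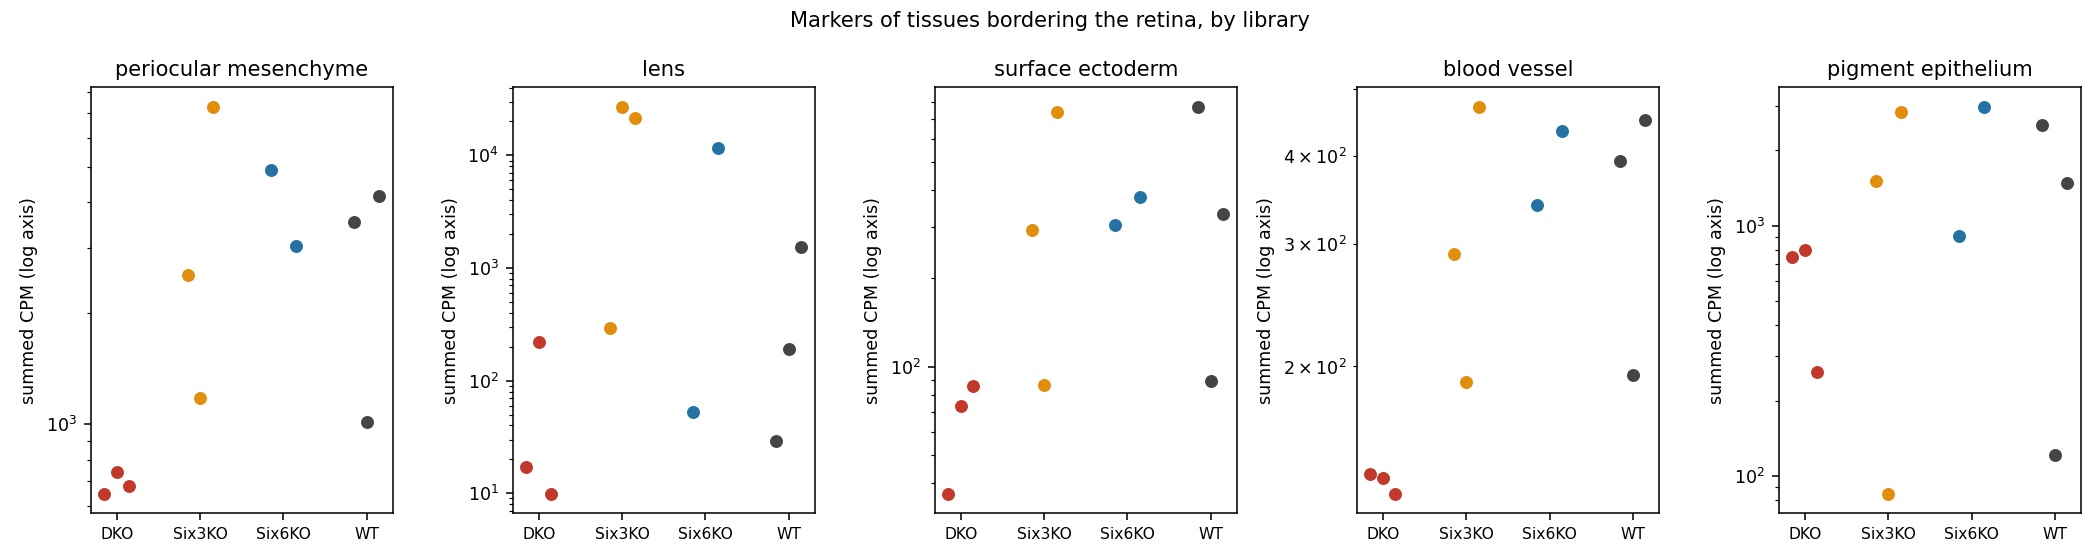
Summed CPM (vertical log axes) of marker lists for 5 tissues that border the retina, in each library (points) of DKO, Six3KO, Six6KO and WT. DKO libraries are lowest for mesenchyme (645 to 740 CPM), surface ectoderm (36.7 to 85.6 CPM) and blood vessel genes (131 to 140.4 CPM) and overlap the others for lens and pigment epithelium, while Six3KO library rh012 and WT library rh023 lie nearest to DKO for mesenchyme.

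The mesenchyme sum varied between libraries within each other group as well, and Six3KO library rh012 (1176 CPM) and WT library rh023 (1013 CPM) came nearest to DKO. With the mesenchyme score as a covariate, 104 genes were called, 78 higher and 26 lower, and 55 of the 337 called without it (16.3%) were among them, while all 337 kept their sign. With the covariate the log2 difference was 7.29 for Dbx1, 1.78 for Zic1, -1.41 for Otx2 and -1.97 for Ptprt, with adjusted p of 0.0196 to 0.0315. It was further from 0 than without the covariate, and still called, for Car5b (5.66), Lmo3 (4.35), Tfap2c (4.32), Wnt3a (4.80), Dio3 (-5.33) and Six6 (-2.13). The part of these tissues in calls that were lost with the covariate was not tested.

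The 3 DKO libraries were not equally far from the others. Library rh021 was the DKO library nearest to the mean of the 8 others in 160 of the 194 higher genes (82.5%) and in 87 of the 143 lower genes (60.8%), against 42.1% of all genes tested. It also held the most Six3 and Six6 reads of the DKO libraries (98.2 and 99.8 CPM). The order of libraries held for Tmem132b, Rfx4, Dbx1 and Zic1 above, while Otx2, Ptprt and Cdh13 were as far from the others in rh021 as in rh010 and rh011. Whether reads left at Six3 or Six6 bear on the smaller differences of rh021 was not tested.

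**Figure D5:**
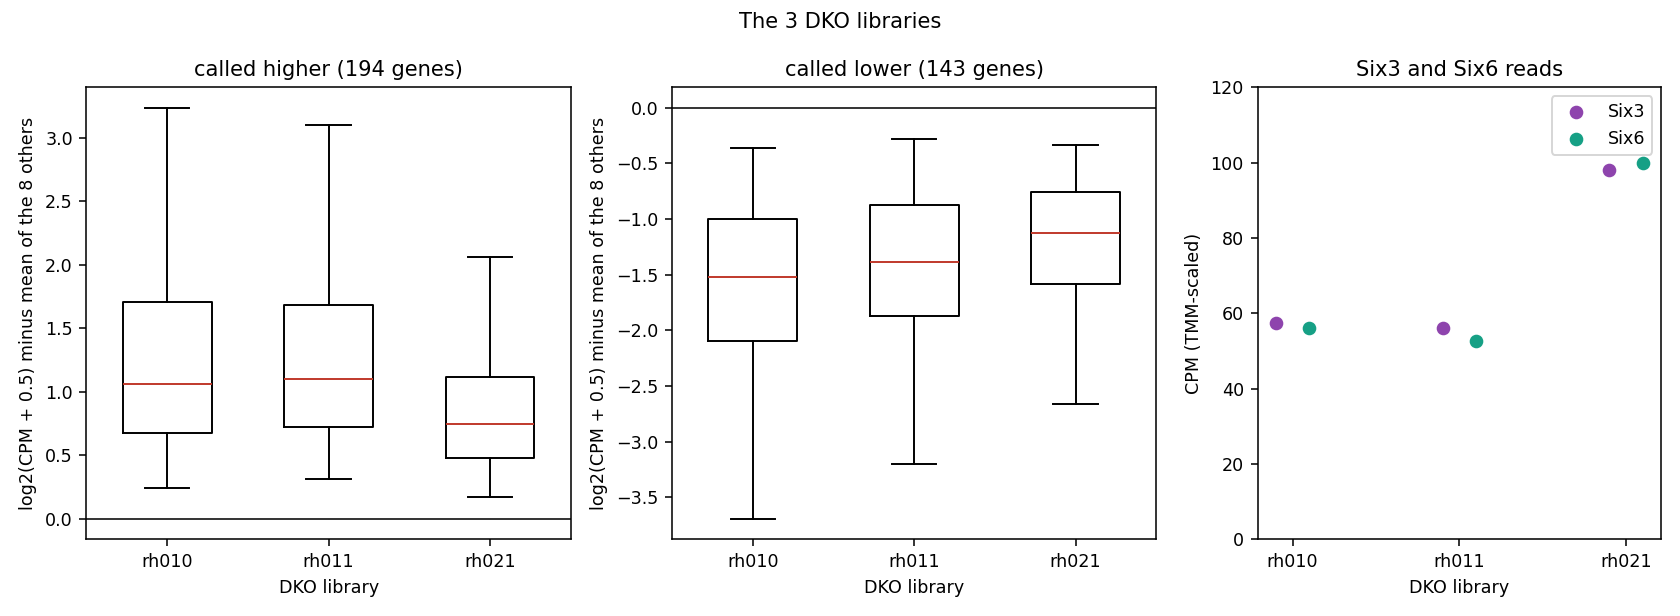
Log2(CPM + 0.5) minus the mean of the 8 other libraries (vertical axes) for the 194 higher genes (left) and the 143 lower genes (middle) in each DKO library, as boxes with medians and quartiles and whiskers to the last value within the usual range, and CPM of Six3 and Six6 (right). Medians are 1.06, 1.10 and 0.74 for the higher genes and -1.52, -1.39 and -1.13 for the lower genes in rh010, rh011 and rh021, and rh021 holds 98.2 CPM of Six3 and 99.8 CPM of Six6 against 52.8 to 57.3 CPM in the others.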

How the data were processed

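The values analysed are raw counts of reads per gene symbol, as the authors deposited them in 1 table with 1 column per library. Per the submitters' processing notes, the tools were Trim Galore 0.3.7, TopHat2 2.0.13, HTSeq 0.6.1, Cufflinks 2.2.1 and Cuffdiff, and the genome build was mm10. Per the labels' protocols, libraries were made from total RNA after removal of ribosomal RNA. The table lists 13498 genes (51 with 0 reads). How they were selected, the annotation and the strandedness of counting are not stated in these sources.

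Tests used edgeR 4.0.16 in R 4.3.3. A filter (filterByExpr, minimum count 10) left 13292 genes, TMM gave the scaling, and all 11 libraries entered 1 robust quasi-likelihood fit with a mean per group. DKO was set against the equally weighted mean of the Six3KO, Six6KO and WT means, with Benjamini-Hochberg adjustment over all tested genes and calls under 0.05. The standard error is the log2 difference divided by the square root of F. Log2 levels per library use a prior count of 2. On simulated data with 200 changed genes, for DKO against the mean of the 3 groups, the test found 61.7% of genes changed 2 fold, 89.6% of those changed 4 fold and 94.4% of those changed 8 fold. Those 3 simulations tested 13252 to 13261 genes and gave 6 to 12 false calls each. They drew each gene on its own, without the shared shifts in tissue markers seen between these libraries, so their rates may not hold for these data. No pair of replicates was a duplicate (chi-square per degree of freedom at least 9.72). Intervals for read ratios cover counting error only.

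Members and the 24 gene lists were chosen with earlier results of these data known. Named genes were Six3, Six6, Six3os1 and Esr1, then the 12 higher and 12 lower called genes with the largest fold change, no overlap and at least 5 CPM in the higher group. To these were added the 5 with the smallest p in each direction, up to 6 in each direction with both single mutants within 2 fold of WT, up to 5 called with overlap, and up to 3 members of each list. Predicted, mitochondrial, small RNA and sex-linked marker genes were left out. Positions are from GENCODE vM21 (GRCm38), where 13015 of 13292 symbols (97.9%) matched 1 gene. Promoters are from RefSeq (GRCm38.p6), where 15 of the 21 genes called under every alternative matched. Alternatives were other scaling, no filter, DESeq2 1.42.0, pooled or reweighted groups, pairs of the other groups, a covariate for the mesenchyme score (the mean log2 level of its genes), and each library left out. A fit without Six3KO library rh026 and Six6KO library rh020, and a fit with mesenchyme and lens covariates, were chosen after seeing the data. Some genes of the lists are not reported here by name.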

Additional observations from a re-analysis of the deposited data

How the results depend on the processing

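The direction of all 337 genes called in DKO against the mean of Six3KO, Six6KO and WT was kept under other scaling (323 calls with relative log expression factors, 358 with none), without the low-count filter (336), with weights by library number (343) and with DESeq2. DESeq2 called 475 genes higher and 818 lower (36.7% higher, against 57.6% in edgeR), 735 of them outside all other libraries, where edgeR had 319. It called 774 genes against Six3KO, 671 against Six6KO and 773 against WT, where edgeR had 78, 31 and 172, and 18 among the 3 groups, where edgeR had 1. The mesenchyme covariate left 78 higher and 26 lower calls, 61 outside all others and 2 against Six6KO. The mesenchyme and lens covariates left 98 higher and 74 lower, 71 outside all others, 12 against Six3KO, 2 against Six6KO and 331 against WT. Pooling the 8 libraries gave 254 lower calls. Setting DKO against Six6KO and WT alone gave 86 lower and 204 outside all others, and against Six3KO and Six6KO alone 105 higher, 74 lower and 175 outside all others. Without Six3KO library rh026 and Six6KO library rh020, 37 genes were called against Six3KO, 4 against Six6KO, 283 against WT and 2 among the 3 groups. Leaving out 1 library at a time gave 34 to 209 higher, 9 to 219 lower and 42 to 390 outside all others, 16 to 93 against Six3KO, 1 to 77 against Six6KO, 20 to 279 against WT and 1 to 2 among the 3 groups. Slc45a2, a pigment gene that was not called (log2 difference -4.14), turned to 1.07 with the mesenchyme covariate and 0.82 with both covariates. Where a count moved with a covariate or with DESeq2, the cause was not tested. In all, 40 genes were called in each of the 11 fits that left out a library, 34 higher and 6 lower. No paired analysis was possible because the columns carry no replicate number. With 3 DKO and 2 Six6KO libraries, 2-fold changes were the least often recovered in the simulations.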
